A study of Sus scrofa with 6 samples.

Results

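The myostatin, activin and SMAD genes examined here are MSTN, the secreted inhibitors FST and FSTL3, the receptors ACVR2A, ACVR2B and TGFBR1, and the intracellular proteins SMAD2, SMAD3, SMAD4 and SMAD7. These 10 genes were taken by symbol from the 31908 annotated genes of the expression table, and they accounted for 30 of its 83119 transcript rows. The level of a gene was the sum of the FPKM values of all rows that carry its gene identifier, where FPKM are reads scaled by transcript length and by the mapped reads of the library. All 10 genes were found in the table, and all passed the minimum for testing, a mean of 0.1 FPKM over the pigs.

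RNA came from Laiwu pigs, a Chinese breed known for marbled meat, and was taken from a long muscle that runs along the back, the longissimus dorsi (LD). The study selected pigs at both extremes of intramuscular fat (IMF) content: 3 pigs with high IMF (S-H, named LW63, LW70 and LW119) and 3 with low IMF (S-L, named LW82, LW88 and LW90). All were castrated males, none is described as treated, and their age is not given in the sources used here. Each pig gave 1 library of total RNA depleted of ribosomal RNA, made from whole muscle and therefore from muscle fibres together with the other cells between them.

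Myostatin, the product of MSTN, is a secreted member of the transforming growth factor beta family that is made mainly by skeletal muscle and restrains its growth, and animals without a working gene are heavily muscled. Myostatin and the activins bind a type II receptor, ACVR2B or ACVR2A, which recruits a type I receptor such as TGFBR1. The type I receptor phosphorylates SMAD2 and SMAD3, which join SMAD4 and enter the nucleus, while SMAD7 dampens the signal at the receptor and follistatin (FST) and follistatin-like 3 (FSTL3) bind the ligands outside the cell. The same pathway acts on adipocyte precursors and fibroblasts, so its transcripts in whole muscle need not come from fibres.

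None of the 10 genes differed between S-H and S-L at the thresholds of the study, which asked for p under 0.01 before adjustment together with a log2 fold change of 1 or more in either direction. Of the 16333 genes tested with limma on log2(FPKM + 0.1), 204 passed these thresholds (1.25%), 152 of them higher in S-H and 52 lower. The Benjamini-Hochberg adjusted p of limma was below 0.05 for 0 genes, with 1217 genes at an unadjusted p below 0.05 (7.45%), and no gene of the 10 was among these 1217. The groups overlapped in all 10 genes, whereas 2280 of the tested genes (14.0%) had groups that did not overlap. Of these 2280, 1943 were higher in S-H and 337 lower. FST (0.81) and ACVR2B (0.53) had the highest log2 fold changes (S-H minus S-L), and TGFBR1 (-0.74) and MSTN (-0.56) the lowest. In whole muscle, fewer cells of a type and less RNA per cell cannot be told apart.

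**Figure D1:**
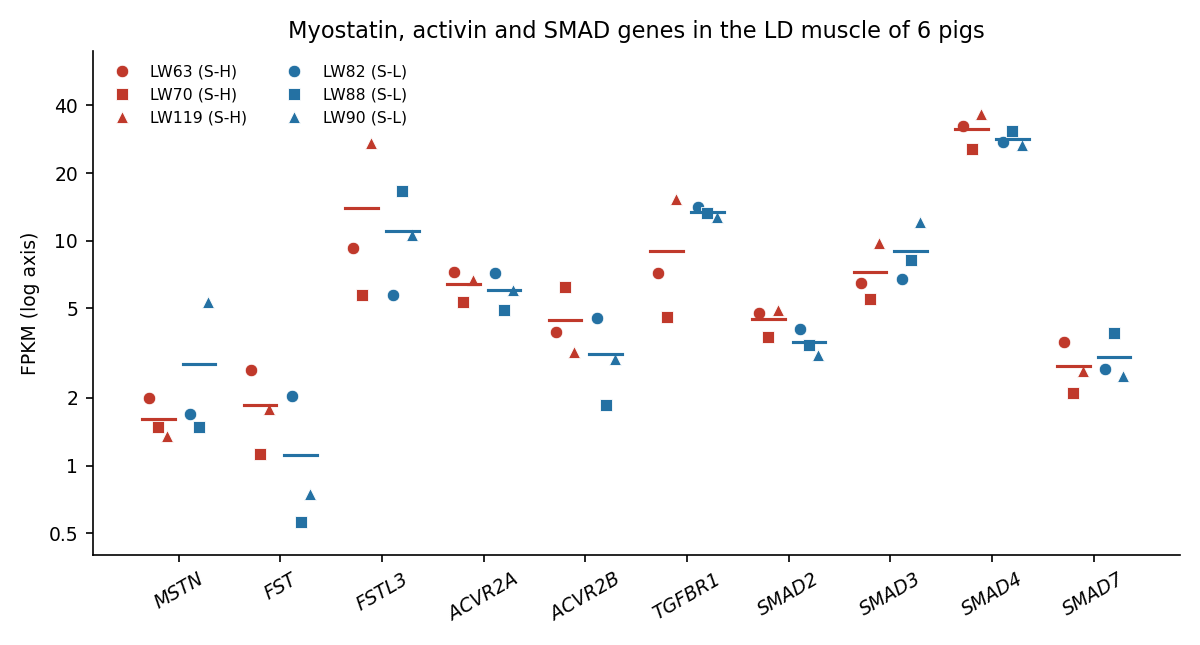
FPKM (log axis) of the 10 genes in each pig, with S-H pigs in red, S-L pigs in blue, and a horizontal line at the mean of each group (n = 3). Red and blue points overlap for every gene. MSTN in LW90 (5.33 FPKM) stands above the other 5 pigs, and TGFBR1 in LW63 (7.18) and LW70 (4.58) below the other 4.

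The libraries differed in scale in a way that bears on every gene described here. The summed FPKM ran from 638536 in LW119 to 846661 in LW82, and over all tested genes the log2 fold change had a median of 0.19 in place of 0. After median-ratio size factors, between 0.819 (LW90) and 1.16 (LW119), this median was 0.01 and the genes that passed were 95 higher and 90 lower. With every library scaled to the same sum (TPM) the median was 0.32, and 242 genes passed higher and 33 lower. Of the 10 genes, 6 had a positive log2 fold change with FPKM as deposited and 3 with size factors, and under each of these scalings 3 of the 10 lay above the median of all genes. The median over the 10 genes was 0.12 with FPKM and -0.09 with size factors.

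Of the cell type markers, most of those of adipocytes moved with the group. Of 7 adipocyte markers, 5 passed higher in S-H (ADIPOQ, PLIN1, FABP4, CIDEC and LEP), 6 did not overlap, and none was at 0, beside 1.25% of all tested genes that passed and 14.0% that did not overlap. With size factors 3 of the 7 passed (PLIN1, CIDEC and LEP), and ADIPOQ (log2 fold change 1.69, unadjusted p = 0.0112 by limma) and FABP4 (1.12, unadjusted p = 0.0168 by limma) did not. The summed level of the 7 was 444 to 1294 FPKM in S-H and 255 to 376 in S-L. PLIN4, the marker whose groups overlapped, was lower in LW119 (61.7 FPKM) than in any S-L pig (68.1 to 86.6). Of the muscle fibre markers, 6 of 10 were found by symbol and none passed, with sums of 8448 to 12785 FPKM in S-H and 8050 to 11652 in S-L (TTN, MYH1, MYH2 and MYH4 were not analysed here). Single fibre markers went both ways, and 4 of the 6 had a log2 fold change above 0. The lowest was ACTA1 (-0.97, unadjusted p = 0.0255 by limma) and the highest DES (0.81). TNNT1 was higher in S-H without overlap. No marker passed among 6 of fibroblasts (215 to 420 FPKM in S-H, 247 to 386 in S-L), 4 of endothelium (70.9 to 101 and 55.6 to 83.7), 4 of leukocytes (9.97 to 35.5 and 14.6 to 16.8) or 2 of satellite cells (1.44 to 4.17 and 2.27 to 4.69). Among these markers the groups did not overlap for PECAM1 of endothelium alone, which was higher in S-H. Of the satellite cell markers, PAX7 had a log2 fold change of -0.92 and MYF5 of 0.47. The part of the adipocyte RNA in the values of the 10 genes was not tested.

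The ligand gene MSTN (ENSSSCG00000016047, chr15:94620269-94628546, Sscrofa11.1) was described by 1 transcript. It was at 1.99 FPKM in LW63, 1.48 in LW70 and 1.35 in LW119, and at 1.69 in LW82, 1.49 in LW88 and 5.33 in LW90. LW90 thus carried a level far above the rest, and the other pigs of both groups shared 1 range. The means were 1.61 ± 0.340 FPKM in S-H and 2.84 ± 2.16 in S-L (SD, n = 3 each). For MSTN the log2 fold change was -0.56 (SE 0.46, 95% interval -1.61 to 0.49, adjusted p = 0.762 by limma with Benjamini-Hochberg). Without LW90 it was -0.00045, so the difference in means rested on that pig. The mean of MSTN over the 6 pigs stood at the percentile 46.9 of the tested genes.

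The locus of MSTN is crossed by 11 rows that belong to other genes, among them PMS1 and C2orf88. Of these, the assembled C2orf88 transcript TCONS_00106512 (chr15:94623391-94794274) was high enough to be tested. Its values were 0.0564 FPKM in LW63, 0.10 in LW70 and 0.0212 in LW119 against 0.329 in LW82, 0.132 in LW88 and 0.256 in LW90. The groups did not overlap, and the transcript did not pass (log2 fold change -1.08, adjusted p = 0.848 by limma). The table names no strand for the rows, and how reads of overlapping genes were divided between them was not tested.

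The 3 genes whose log2 levels followed MSTN most closely over the 6 pigs, out of 12119 with a symbol, were CLDN15, a U2 small nuclear RNA gene and AP3S2. CLDN15, which encodes a tight junction claudin, had a Pearson r of 0.99 and a Spearman rho of 0.94, and r was also 0.99 without LW63 and LW90, the pigs farthest from the median of MSTN. CLDN15 was at 2.83 FPKM in LW90 and at no more than 0.380 in the other pigs. AP3S2, a subunit of a vesicle coat, had an r of 0.97 over all pigs and 0.65 without LW63 and LW90. The U2 gene (ENSSSCG00000040819, r = 0.97) was at 2.39 FPKM in LW90, 0.00697 in LW63 and 0 elsewhere. These likenesses are descriptions over 6 libraries, picked from many genes.

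Among the inhibitors, FST (ENSSSCG00000016892, chr16:32805874-32811421) binds activins and myostatin and blocks their access to the type II receptors. Its level was 2.67 FPKM in LW63, 1.13 in LW70 and 1.79 in LW119 against 2.03 in LW82, 0.563 in LW88 and 0.744 in LW90. The low values of LW88 and LW90 lay below every S-H pig, but LW82 lay above LW70 and LW119. The means were 1.86 ± 0.775 FPKM in S-H and 1.11 ± 0.802 in S-L (SD, n = 3 each). FST had a log2 fold change of 0.81 (SE 0.49, 95% interval -0.30 to 1.92, adjusted p = 0.706 by limma with Benjamini-Hochberg), the highest of the 10 genes. It stayed positive in each of 18 other settings, between 0.47 and 1.31, and was 0.47 without LW88, 0.52 without LW63 and 1.31 without LW82.

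FST has a pair of annotated transcripts that were not detected equally in all pigs. FST-201 was at 0.563 to 1.95 FPKM in every pig. FST-202 was at 0.722 FPKM in LW63, 0.529 in LW70, 0.681 in LW119 and 1.03 in LW82, and was listed at 0 in LW88 and LW90. These S-L pigs were also the lowest for the whole gene, whose level includes FST-202. For FST-201 alone, LW90 (0.744 FPKM) lay above LW70 (0.602). The log2 fold change was 0.50 for FST-201 (adjusted p = 0.867 by limma) and 1.72 for FST-202 (adjusted p = 0.859 by limma). FST-202 passed without LW82, with a log2 fold change of 2.89, and was at 1.14 without LW88 or LW90.

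FSTL3 (ENSSSCG00000037102, chr2:77656658-77662613) encodes a secreted glycoprotein related to follistatin that also binds activins and myostatin. It was at 9.33 FPKM in LW63, 5.72 in LW70 and 27.1 in LW119, and at 5.73 in LW82, 16.6 in LW88 and 10.6 in LW90. S-H held both the lowest and the highest of all 6 pigs, and this spread was wider than the difference between the group means. The means were 14.0 ± 11.4 FPKM in S-H and 11.0 ± 5.45 in S-L (SD, n = 3 each). FSTL3 had a log2 fold change of 0.17 (SE 0.57, 95% interval -1.11 to 1.45, adjusted p = 0.950 by limma), and it turned to -0.03 with size factors. The high value of LW119 came from FSTL3-201, which was at 21.3 FPKM there and at 3.01 to 11.0 in the other pigs.

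The type II receptor genes were expressed in every pig. ACVR2A (ENSSSCG00000015669, chr15:4173805-4259706) encodes a receptor for activins and, with lower affinity, myostatin. It was at 7.24 FPKM in LW63, 5.36 in LW70 and 6.66 in LW119, and at 7.22 in LW82, 4.92 in LW88 and 6.05 in LW90. The highest pigs of both groups were nearly level, as were the lowest. The means were 6.42 ± 0.964 FPKM in S-H and 6.06 ± 1.15 in S-L (SD, n = 3 each). For ACVR2A the log2 fold change was 0.09 (SE 0.26, 95% interval -0.49 to 0.67, adjusted p = 0.940 by limma) with FPKM and -0.11 with size factors. ACVR2A-201 held at least 98.5% of the gene's level in each pig.

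ACVR2B (ENSSSCG00000011257, chr13:23237699-23267382) encodes the main type II receptor for myostatin. It was at 3.91 FPKM in LW63, 6.22 in LW70 and 3.20 in LW119, and at 4.55 in LW82, 1.86 in LW88 and 2.97 in LW90. LW70, which was the lowest pig for 5 of the 10 genes, was the highest for ACVR2B. The means were 4.44 ± 1.58 FPKM in S-H and 3.12 ± 1.35 in S-L (SD, n = 3 each). ACVR2B had a log2 fold change of 0.53 (SE 0.38, 95% interval -0.33 to 1.39, adjusted p = 0.739 by limma), and it was positive in all 18 other settings (0.21 to 0.87, with 0.21 without LW88 and 0.26 without LW70). ACVR2B-203 was the leading transcript in every pig, with on average 75.4% of the gene's level in S-H and 58.2% in S-L. Its share was 62.2% in LW119 and 49.8% in LW88. ACVR2B-204 was at 0.0868 to 0.671 FPKM in S-H and 0.386 to 1.35 in S-L (log2 fold change -1.25, adjusted p = 0.859 by limma).

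TGFBR1 (ENSSSCG00000005382, chr1:240859270-240918528) encodes a type I receptor for transforming growth factor beta that also serves myostatin. Its level was 7.18 FPKM in LW63, 4.58 in LW70 and 15.4 in LW119 against 14.1 in LW82, 13.3 in LW88 and 12.7 in LW90. The S-L pigs were close to each other, whereas the S-H group held both the lowest pigs and the highest. The means were 9.04 ± 5.63 FPKM in S-H and 13.4 ± 0.698 in S-L (SD, n = 3 each). TGFBR1 had a log2 fold change of -0.74 (SE 0.40, 95% interval -1.63 to 0.16, unadjusted p = 0.0957 and adjusted p = 0.678 by limma), the lowest p of the 10 genes.

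The result for TGFBR1 changed with the scaling and with single S-H pigs. With size factors the values were 6.36, 4.79 and 13.3 in the S-H pigs and 13.6, 13.8 and 15.5 in the S-L pigs. The groups thus no longer overlapped, by a small margin between LW119 and LW82. How many of all tested genes had no overlap with size factors was not counted. The log2 fold change of TGFBR1 was then -0.94 (95% interval -1.77 to -0.11, unadjusted p = 0.0306 and adjusted p = 0.765 by limma). Without LW70 the log2 fold change with FPKM was -0.34 (unadjusted p = 0.348 by limma). Without LW119 it was -1.20 and the gene passed the thresholds (unadjusted p = 0.00246 and adjusted p = 0.389 by limma). Over the 18 other settings the adjusted p of limma for TGFBR1 lay between 0.389 and 0.9999.

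The table gives 6 transcripts of TGFBR1, and the leading transcript was not the same in all pigs. TGFBR1-203 (chr1:240860156-240918528) was at 1.33 FPKM in LW63 and 0.760 in LW70, but at 14.4 in LW119, 9.22 in LW82, 12.8 in LW88 and 12.4 in LW90. TGFBR1-202 (chr1:240859270-240915532) was at 5.47 FPKM in LW63 and 3.58 in LW70 with 0 listed for the remaining 4 pigs. LW63 and LW70 thus had TGFBR1-202 as their leading transcript and LW119 and the S-L pigs TGFBR1-203. TGFBR1-203 made up 18.5% of the gene's level in LW63 and 16.6% in LW70 against 65.4% to 97.8% in the others. The 2 transcripts share most of their span and differ in where they start and end. LW63 and LW70 were also the lowest pigs for the level of the gene, which is a sum over these rows. How reads were divided between the overlapping transcripts, and what this did to the sum, was not tested.

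For TGFBR1-202 the log2 fold change was 3.67 (SE 1.48, unadjusted p = 0.0440 and adjusted p = 0.848 by limma), and for TGFBR1-203 it was -2.13 (SE 1.004, unadjusted p = 0.0731 and adjusted p = 0.848 by limma). Without LW119 TGFBR1-202 passed, with a log2 fold change of 5.50 and an adjusted p of 0.0489 by limma, against 0.757 to 0.961 in its other alternatives, and TGFBR1-203 passed with a log2 fold change of -3.37. Without LW70 TGFBR1-203 was at -1.33 and did not pass. The pseudocount sets the size of a fold change against values of 0. TGFBR1-201 and TGFBR1-204 were highest in LW82 (1.56 and 1.78 FPKM), and in the other pigs they did not exceed 0.474 and 0.0269. TGFBR1-OT1, an assembled transcript within the gene (chr1:240871562-240878596), was listed at 0 in the S-H pigs and was at 0.826 FPKM in LW82, 0.150 in LW88 and 0.0689 in LW90 (log2 fold change -1.76, unadjusted p = 0.0499 and adjusted p = 0.848 by limma).

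**Figure D2:**
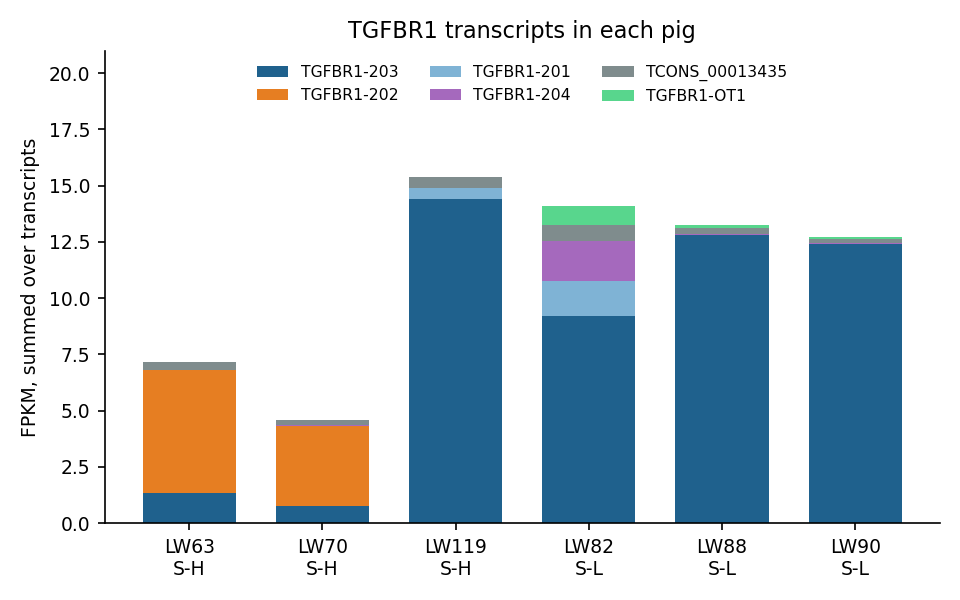
FPKM of the 6 transcripts of TGFBR1, stacked within a bar for each pig, so that the height of a bar is the level of the gene. TGFBR1-202 (orange) fills most of the bars of LW63 and LW70 and is listed at 0 in the others, where TGFBR1-203 (dark blue) fills most of the bar.

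Among the receptor-regulated SMADs, SMAD2 (ENSSSCG00000004505, chr1:97415716-97511358) was at 4.77 FPKM in LW63, 3.74 in LW70 and 4.94 in LW119, and at 4.06 in LW82, 3.45 in LW88 and 3.10 in LW90. LW82 lay above LW70, and the other S-L pigs lay below all S-H pigs. The means were 4.49 ± 0.648 FPKM in S-H and 3.53 ± 0.485 in S-L (SD, n = 3 each). For SMAD2 the log2 fold change was 0.33 (SE 0.25, 95% interval -0.24 to 0.91, adjusted p = 0.746 by limma), and it was 0.13 with size factors. Of its transcripts, SMAD2-203 had groups that did not overlap, with 0.711 to 0.861 FPKM in S-H and 0.141 to 0.695 in S-L (log2 fold change 0.83, adjusted p = 0.859 by limma).

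SMAD3 (ENSSSCG00000004952, chr1:164998083-165124454) is the partner of SMAD2 that binds DNA directly. It was at 6.50 FPKM in LW63, 5.49 in LW70 and 9.75 in LW119, and at 6.77 in LW82, 8.20 in LW88 and 12.2 in LW90. LW119 lay among the S-L pigs, and LW63 and LW70 below them all. The means were 7.25 ± 2.22 FPKM in S-H and 9.04 ± 2.79 in S-L (SD, n = 3 each). For SMAD3 the log2 fold change was -0.31 (SE 0.31, 95% interval -1.02 to 0.39, adjusted p = 0.810 by limma), negative in all 18 other settings (-0.55 to -0.08, with -0.08 without LW90, -0.14 without LW70 and -0.55 without LW119).

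The short transcript SMAD3-202 (chr1:165096691-165120738) separated the groups, with all S-H pigs below all S-L pigs. Its level was listed at 0 in LW63 and was 0.118 FPKM in LW70 and 0.137 in LW119, against 0.390 in LW82, 0.229 in LW88 and 1.33 in LW90. The log2 fold change was -1.83 (SE 0.71, unadjusted p = 0.0382 and adjusted p = 0.848 by limma), which did not pass. SMAD3-202 was at most a minor share of the gene, on average 1.19% in S-H and 6.50% in S-L. An assembled transcript of an unnamed locus, TCONS_00025339 (chr1:164998048-165073616), overlaps SMAD3 and was at 1.66 to 3.34 FPKM in S-H and 3.16 to 7.99 in S-L.

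SMAD4 (ENSSSCG00000004524, chr1:100514791-100628029), the partner shared by all receptor-regulated SMADs, was the most expressed of the 10 genes. Its level was 32.5 FPKM in LW63, 25.5 in LW70 and 36.6 in LW119, and 27.5 in LW82, 30.6 in LW88 and 26.6 in LW90. The S-L pigs lay within the range of the S-H pigs. The means were 31.5 ± 5.63 FPKM in S-H and 28.3 ± 2.08 in S-L (SD, n = 3 each). SMAD4 had a log2 fold change of 0.14 (SE 0.23, 95% interval -0.37 to 0.66, adjusted p = 0.888 by limma) with FPKM and -0.06 with size factors. SMAD4-201 accounted for 96.3% of the level in S-H and 94.8% in S-L on average, and 2 of its 4 transcripts were at 0 in all pigs. A transcript named as antisense to SMAD4, TCONS_00021710, was at 2.69 FPKM in LW82, 0.175 in LW63 and 0 elsewhere.

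SMAD7 (ENSSSCG00000004507, chr1:98510229-98542382), the inhibitory SMAD that is itself induced by the pathway, was at 3.55 FPKM in LW63, 2.10 in LW70 and 2.64 in LW119, and at 2.70 in LW82, 3.89 in LW88 and 2.50 in LW90. The values of both groups were interleaved. The means were 2.76 ± 0.733 FPKM in S-H and 3.03 ± 0.747 in S-L (SD, n = 3 each). For SMAD7 the log2 fold change was -0.13 (SE 0.30, 95% interval -0.82 to 0.55, adjusted p = 0.926 by limma). The leading transcript, SMAD7-202, was at 1.69 to 3.17 FPKM in S-H and 1.58 to 2.93 in S-L. SMAD7-201 was at 0.254 to 0.953 FPKM in S-H and 0.613 to 0.954 in S-L (log2 fold change -0.70, adjusted p = 0.859 by limma).

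Of the 30 transcript rows of the 10 genes, 3 were at 0 in all pigs and 25 were tested. None of the 25 passed the thresholds, which 1.25% of the 40336 tested transcripts of the table did. The groups did not overlap in 3 of the 25 (SMAD2-203, SMAD3-202 and TGFBR1-OT1), a share of 12.0% beside 11.3% of all tested transcripts. An unadjusted p below 0.05 was reached by TGFBR1-202, SMAD3-202 and TGFBR1-OT1, and an adjusted p below 0.05 in limma by none, beside 34 of all transcripts.

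**Figure D3:**
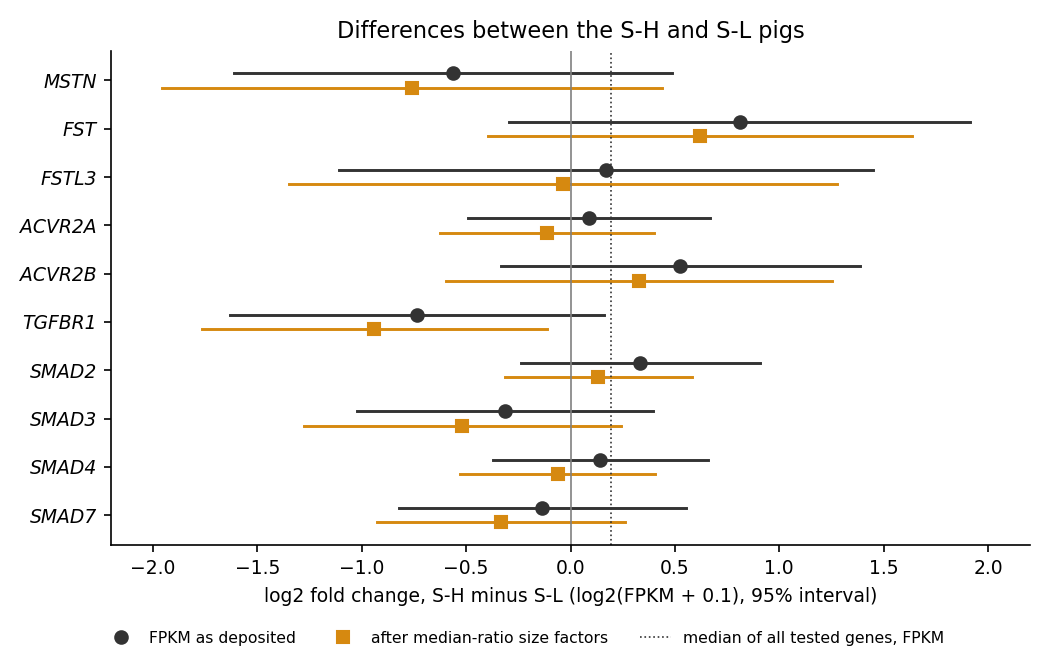
Log2 fold changes (S-H minus S-L, on log2(FPKM + 0.1)) of the 10 genes with 95% intervals, for FPKM as deposited (black circles) and after median-ratio size factors (orange squares), with the median of all tested genes for FPKM as a dotted line. All intervals with FPKM include 0. With size factors every gene moves to the left, and the interval of TGFBR1 (-1.77 to -0.11) no longer includes 0.

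The intervals show what could be seen with 3 pigs a group. For ACVR2A, SMAD2, SMAD4 and SMAD7 the 95% interval lay between -1 and 1, so that a change by the fold the study required lay outside it. For MSTN, FST, FSTL3, ACVR2B, TGFBR1 and SMAD3 the interval reached beyond 1 on at least 1 side. The standard errors ran from 0.23 (SMAD4) to 0.57 (FSTL3).

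Levels per length could be ordered over the 6 pigs. SMAD4 came first with a mean of 29.9 FPKM (percentile 92.6 of the tested genes), followed by FSTL3 (12.5), TGFBR1 (11.2), SMAD3 (8.14), ACVR2A (6.24), SMAD2 (4.01), ACVR2B (3.78), SMAD7 (2.90), MSTN (2.22) and FST (1.49, percentile 39.0). The ranges of neighbours in this order overlapped in every case. Within single pigs, SMAD4 was above FSTL3 and ACVR2A above SMAD2 in 6 of 6, and MSTN was above FST in 3 of 6. LW119 was the highest pig for 4 of the genes and LW70 the lowest for 5.

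Ratios between genes of 1 library do not depend on the scaling, and 5 of them were compared between the groups. MSTN per FST, the ligand over its inhibitor, was 0.745 in LW63, 1.31 in LW70 and 0.757 in LW119 and was 0.831 in LW82, 2.65 in LW88 and 7.16 in LW90. LW88 and LW90 exceeded all S-H pigs, and LW82 did not. FST-202, a part of the FST level, was listed at 0 in LW88 and LW90. The difference was -1.47 on the log2 scale (exact two-sided permutation test, p = 0.20, Benjamini-Hochberg p = 0.50 over the 5 ratios, where 3 pigs against 3 cannot go below 0.10). It was -0.71 without LW90, -2.27 without LW82 and -1.12 with the leading transcript of each gene.

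The ratio of SMAD2 to SMAD3 was 0.734 in LW63, 0.682 in LW70 and 0.507 in LW119 and was 0.599 in LW82, 0.421 in LW88 and 0.255 in LW90. SMAD3 was the more expressed of the pair in every pig, and the groups overlapped only through LW119 and LW82. The difference was 0.66 on the log2 scale (exact two-sided permutation test, p = 0.20, Benjamini-Hochberg p = 0.50), and 0.33 without LW90. ACVR2A per ACVR2B, the balance of the type II receptors, was 0.862 to 2.08 in S-H and 1.59 to 2.64 in S-L (log2 difference -0.45, exact permutation p = 0.50, and -0.057 without LW70). FST per FSTL3 was 0.0659 to 0.287 in S-H and 0.0339 to 0.355 in S-L (log2 difference 0.72, exact permutation p = 0.70). SMAD7 per SMAD3, the inhibitory over the activating SMAD, was 0.271 to 0.546 in S-H and 0.206 to 0.474 in S-L (log2 difference 0.18, exact permutation p = 0.70). The Benjamini-Hochberg p of the last 3 ratios was 0.70.

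**Figure D4:**
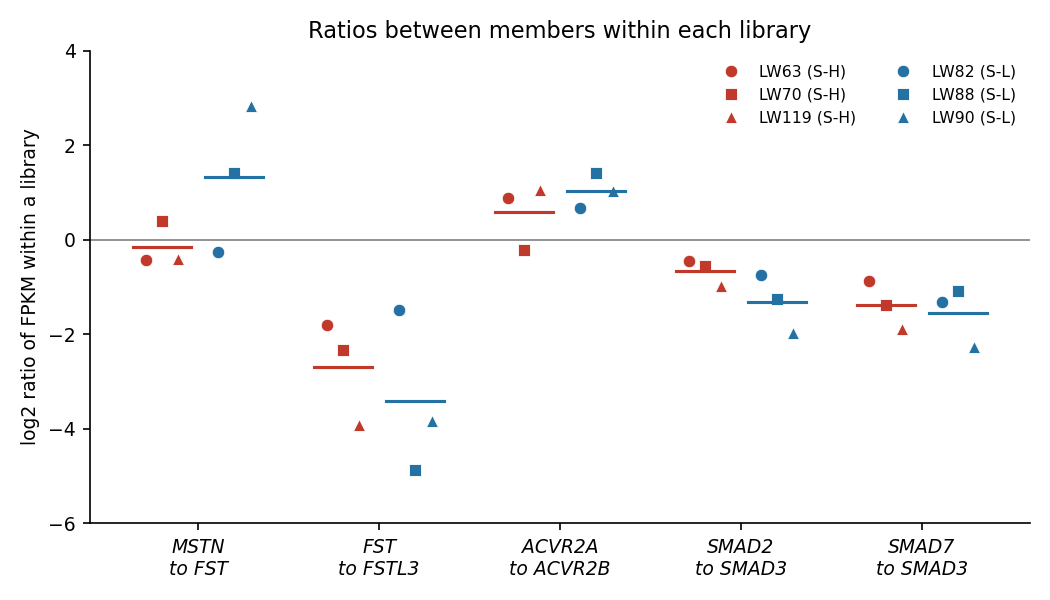
Log2 ratios of FPKM within each library for 5 pairs of genes, with S-H pigs in red, S-L pigs in blue and a line at the mean of each group (n = 3). The groups overlap in every ratio. MSTN to FST is highest in LW90 and LW88, and SMAD2 to SMAD3 is lowest in these same pigs.

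The other genes of the pathway were taken from 6 lists of 83 genes written from general knowledge, of which 77 were expressed enough to be tested. Of the 77, 1 passed, the response gene CCN2, lower in S-H (1.30%, beside 1.25% of all genes). The groups did not overlap in 5 (6.49%, beside 14.0% of all genes), and the median log2 fold change was 0.06, beside 0.19 for all genes. Of the 5, BMP1 and ACVR1C were higher in S-H, and LTBP4, PCSK6 and CCN2 were lower. Over all genes, 1943 without overlap were higher in S-H and 337 lower. Medians of the lists lay between -0.04 and 0.25, and between -0.24 and 0.04 with size factors. With size factors 1 pathway gene passed as well.

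Of the ligands, 8 of 11 were tested and none passed (median -0.04, 3 above 0). The lowest was TGFB2, a transforming growth factor beta isoform, with 11.4 ± 6.34 FPKM in S-H and 17.8 ± 7.87 in S-L (SD, n = 3, log2 fold change -0.76, adjusted p = 0.724 by limma). The lowest pig for TGFB2 was LW70 (4.26 FPKM), and without it the log2 fold change was -0.17. The highest was GDF11, the closest relative of MSTN, with 0.450 ± 0.105 FPKM in S-H and 0.340 ± 0.0408 in S-L (SD, n = 3, log2 fold change 0.31, adjusted p = 0.828 by limma). INHBC, NODAL and GDF3 were below the minimum for testing.

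Of the extracellular binding proteins and antagonists, 14 of 16 were tested and none passed (median 0.13, 9 above 0). LTBP2, a matrix protein of the family that anchors latent growth factor, was highest with a log2 fold change of 0.79 (adjusted p = 0.712 by limma), and 0.26 without LW119. NOG, a secreted antagonist of bone morphogenetic proteins, was lowest with -0.59 (adjusted p = 0.770 by limma), and -0.27 without LW82. LTBP4 was lower in each S-H pig (7.77 to 12.4 FPKM) than in any S-L pig (13.9 to 16.6) without passing. Its log2 fold change was -0.55 (unadjusted p = 0.0577 by limma), and -0.75 with size factors (unadjusted p = 0.0191 by limma). Of the 6 processing enzymes, which cut the precursors of these ligands and their partners, none passed (median 0.08, 4 above 0). BMP1, the metalloprotease that releases myostatin from its propeptide, was at 4.18 to 8.83 FPKM in S-H and 2.14 to 3.90 in S-L (log2 fold change 0.80, adjusted p = 0.666 by limma, and 0.45 without LW119). PCSK6, a proprotein convertase, was at 3.26 to 4.39 FPKM in S-H and 4.44 to 5.19 in S-L (log2 fold change -0.37, adjusted p = 0.724 by limma). In BMP1 and PCSK6 the groups did not overlap. With size factors the log2 fold change was 0.60 for BMP1 and -0.57 for PCSK6 (unadjusted p = 0.0922 and 0.0245 by limma).

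Of 11 other receptors of the family, none passed (median -0.01, 5 above 0). ACVR1C, the type I receptor ALK7 that is known from fat tissue, was at 2.75 FPKM in LW63, 0.578 in LW70 and 0.928 in LW119 and was at 0.406 in LW82, 0.393 in LW88 and 0.161 in LW90. All S-H pigs lay above all S-L pigs. ACVR1C had a log2 fold change of 1.64 (SE 0.55, unadjusted p = 0.0151 and adjusted p = 0.649 by limma), and it passed with TPM (1.82) and without LW70 (2.09). Without LW63, the pig with the highest level, it was 1.05, and without LW90 it was 1.33 (unadjusted p = 0.0623 and 0.0569 by limma). The adipocyte markers were higher in the same pigs, and their part in the level of ACVR1C was not tested. BMPR1B, a receptor for bone morphogenetic proteins, had the lowest log2 fold change, -0.56 (adjusted p = 0.699 by limma, and -0.34 without LW70). With size factors BMPR1B was at -0.76 (unadjusted p = 0.0333 and adjusted p = 0.768 by limma) and ACVR1C at 1.48 (unadjusted p = 0.0188 by limma).

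Of the other SMADs and SMAD regulators, 22 of 23 were tested and none passed (median -0.03, 11 above 0). They lay within the narrowest span of the lists, from -0.43 for NEDD4L to 0.34 for STUB1, both genes of ubiquitin ligases that act on SMADs (adjusted p = 0.806 and 0.755 by limma).

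Of 16 SMAD response genes, 1 passed (median 0.25, 10 above 0). CCN2, which encodes connective tissue growth factor, was at 20.3 FPKM in LW63, 13.2 in LW70 and 25.9 in LW119 against 31.3 in LW82, 59.9 in LW88 and 51.4 in LW90. Every S-H pig lay below every S-L pig. CCN2 fell by 1.26 on the log2 scale in S-H (SE 0.33, unadjusted p = 0.00422 and adjusted p = 0.628 by limma). It did not pass without LW63 (-1.31), LW70 (-0.996), LW88 (-1.07) or LW90 (-1.18), with TPM (-1.13) or with its leading transcript alone (-1.34), while the sign was the same in each. ID2, an inhibitor of basic helix-loop-helix factors, was the highest with 0.74 (adjusted p = 0.678 by limma), and it was 1.17 and passed without LW70 and was 0.32 without LW119.

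**Figure D5:**
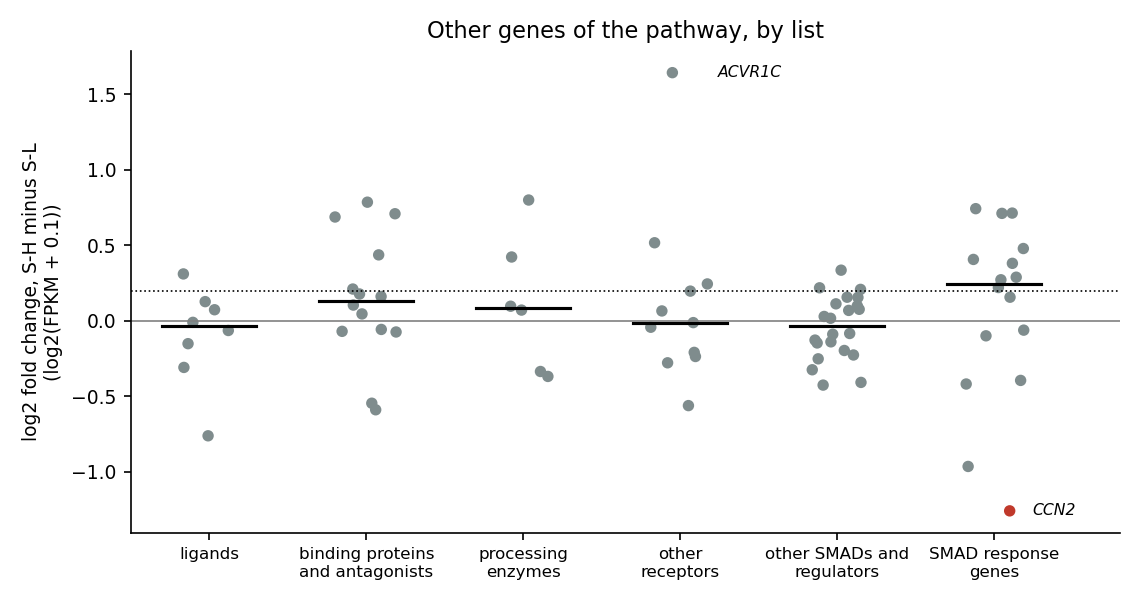
Log2 fold changes (S-H minus S-L, on log2(FPKM + 0.1)) of the 77 tested genes of 6 pathway lists, 1 point a gene, with a line at the median of each list and a dotted line at the median of all tested genes. CCN2 (red) is the gene that passed, at -1.26, and ACVR1C (1.64) lies farthest from 0.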

How the data were processed

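Total RNA of the LD muscle of 6 pigs (S-H, n = 3, and S-L, n = 3, from the sample labels) was extracted with TRIzol, depleted of ribosomal RNA and made into strand-specific libraries. The authors aligned the reads to Sus scrofa 11.1 with HISAT2 (also named in the submitters' processing notes) and assembled and quantified transcripts with StringTie, using uniquely mapped reads. Tool versions are not given in the sources used here. The deposited values are FPKM per transcript and pig, except for Ensembl transcripts without a symbol, which by their values are in TPM and were put on the FPKM scale with 1 factor per pig. No row of the 10 genes was among them. The depth behind single values is unknown from FPKM, so that no intervals for counting error are given.

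FPKM was summed over the rows of a gene. Genes whose mean reached 0.1 FPKM, and separately such transcripts, were compared on log2(FPKM + 0.1) with limma 3.58.1 (variance trend) in R 4.3.3, and p-values were adjusted over all of them by Benjamini-Hochberg. A fold change on this scale understates that of low genes. To pass, a gene needed p under 0.01 before adjustment and a log2 fold change of 1 or more in either direction, the thresholds the authors used with edgeR on counts. Ratios were compared by exact permutation with scipy 1.17.1. The limma step was tested on simulated data. Coordinates span the rows of a gene as deposited. No sequences were used here.

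The members and lists were chosen with earlier results of these data known. Named genes were the 10 members, of each list the genes that passed and those with the highest and lowest log2 fold change, and the 3 genes most like MSTN. In the lists, 1 further gene is not reported here. Cell type markers were planned as counts and ranges. LTBP4, COL3A1, the markers named singly, the single transcripts and the overlapping rows were picked after their values were seen. The other settings were pseudocounts of 1 and 0.01, other minimums, size factors, quantile normalization, TPM, limma with a robust variance or with no trend, genes with a symbol alone, the leading transcript, each pig left out in turn and, chosen after seeing the data, Ensembl transcripts alone.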

Additional observations from a re-analysis of the deposited data

How the results depend on the processing

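Directions held in all 18 other settings for MSTN, FST, ACVR2B, TGFBR1, SMAD2 and SMAD3, and not for FSTL3, ACVR2A, SMAD4 and SMAD7, whose log2 fold changes were near 0. For MSTN this holds in sign only, since its log2 fold change was -0.00045 without LW90. With size factors FSTL3 was at -0.035, ACVR2A at -0.11 and SMAD4 at -0.061. With quantile normalization ACVR2A was at -0.093 and SMAD4 at -0.0032, and with the leading transcript SMAD7 was at 0.010. When each pig was left out in turn, FSTL3 lay between -0.46 and 0.66, ACVR2A between -0.051 and 0.22, SMAD7 between -0.33 and 0.052, the log2 ratio of FST to FSTL3 between -0.021 and 1.67 and that of SMAD7 to SMAD3 between -0.18 and 0.43. The number of the 10 genes that passed was 0 or 1 (TGFBR1 without LW119), that of their transcripts 0 to 2 (TGFBR1-202 and TGFBR1-203 without LW119, FST-202 without LW82), and that of the pathway genes 0 (without LW63, LW88 or LW90) to 3 (ACVR1C, ID2 and COL3A1 without LW70). With the leading transcript 0 pathway genes passed in limma. The cause of these shifts was not tested. No paired analysis was possible because the pigs of both groups are different animals and their labels share no number. FPKM does not give the depth, so that the precision of low genes such as FST and single transcripts is known only from the spread of 3 pigs a group.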
